A study of Mus musculus with 12 samples.

Results

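Conversion of adipose stromal cells into epithelial cells in culture was followed by comparing the RNA of the converted cells with that of the cells they came from. The comparison uses 6 of the 12 libraries of the study, 3 of in vitro iSEPs and 3 of ADSCs, and it covers 12364 of the 24537 genes of the deposited table, namely every gene that reached 1 FPKM in no fewer than 3 of those 12. FPKM count fragments relative to transcript length and library depth. Levels are set beside each other on that scale, between libraries and, per length, between genes. The numbers of higher and lower genes depended on further scaling between libraries, as given below. ADSCs are Pdgfra-positive adipose-derived stromal cells, grown as primary cultures from subcutaneous adipose tissue in DMEM with 10% fetal bovine serum. The name iSEP stands for induced stratified epithelial progenitor; the in vitro iSEPs were obtained from such stromal cells in the dish and were grown in a keratinocyte medium without serum. Medium and conversion therefore changed together, and what each of them contributed cannot be told apart. Every culture came from the strain Pdgfra-creERxLSL-tdTomato, in which a tamoxifen-dependent Cre is driven by Pdgfra and the red reporter sits behind a stop cassette that Cre removes. The labels number 3 animals and use the same mouse numbers in every group. The other 6 libraries, keratinocytes and iSEPs formed in the animal, share the serum-free medium, and the keratinocytes are used below to place a level. Values of a gene are given in the order of mice 1, 2 and 3, in FPKM.

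Stromal cells of connective tissue keep a mesenchymal program: they secrete collagens and other matrix proteins, carry receptors for growth factors such as PDGF, and hold to that matrix through integrins. Basal cells of a stratified epithelium such as the epidermis instead build a keratin skeleton, tie it to their neighbours through desmosomes and to the basement membrane through hemidesmosomes, and move upward into cells that make the cornified envelope. The transcription factor p63 maintains the basal state, Grainyhead-like and AP-2 factors act on epithelial genes, and ZEB and SNAIL factors repress E-cadherin. The published work on iSEPs introduced a p63 isoform, GRHL2, TFAP2A and MYC into the stromal cells. The labels do not name these factors, and reads of an introduced copy cannot be told apart from reads of the cell's own gene here.

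Markers were compared with the labelled cell types, with the values given below. Krt5 and Krt14 were high in in vitro iSEPs and low in ADSCs. Trp63 was high in in vitro iSEPs and near 0 in ADSCs. Its level cannot check identity, because reads of an introduced p63 copy cannot be told apart. Pdgfra was higher in ADSCs, but these cells are named by it. Not every stromal gene differed: Dcn was not called. The 6 libraries held between 21010000 and 27760000 reads in listed genes. Within a group, log2 values of the tested genes correlated at a Pearson r of 0.971 to 0.987 among ADSC libraries and 0.950 to 0.974 among in vitro iSEP libraries, across genes that are not independent of each other. Sex-linked genes followed the mouse number in every library compared here except the library labelled in vitro iSEP of mouse 3. Xist, the transcript of the inactive X chromosome, was at 29.8 FPKM in ADSCs and 31.9 FPKM in in vitro iSEPs of mouse 1. Ddx3y, a Y-linked helicase gene, was at 0.007 and 0 FPKM there. In mouse 2 Xist was at 0.013 and 0.009 FPKM and Ddx3y at 27.6 and 16.2 FPKM, so mouse 1 differed in sex. In mouse 3 Ddx3y was at 23.4 FPKM in the ADSCs and 0.166 FPKM in the library labelled in vitro iSEP, with Xist at 0.008 and 0.016 FPKM. The reason was not tested, and the counts over all genes, with some gene group counts, are also given without that library. Immune markers were unevenly present among the ADSCs: their summed level was 8.19, 72.4 and 12.6 FPKM in ADSCs and 11, 9.14 and 14.2 FPKM in in vitro iSEPs. Lyz2, a macrophage lysozyme, made up 50.5 FPKM of the sum in the ADSCs of mouse 2, and the T-cell gene Cd3e was listed at 0 in all 6 libraries. In in vitro iSEPs the sum was mostly Cd68, at 10.7, 8.09 and 13.8 FPKM. Of the 3 immune markers tested, Cd68 was called higher, and Lyz2 and Csf1r were called lower. Summed over their lists, melanocyte markers reached 1.88 to 3.65 FPKM, endothelial markers 0.744 to 4.07 FPKM and erythroid markers at most 0.111 FPKM. Neural markers summed to 99.9, 117 and 126 FPKM in ADSCs and 21.1, 42.6 and 35.6 FPKM in in vitro iSEPs. Of the 8 listed, only 2 passed the filter on low values, Tubb3 and Ncam1. In ADSCs Tubb3 was at 61.9, 77.5 and 90.5 FPKM and Ncam1 at 36.0, 38.6 and 35.2 FPKM, nearly all of the sum. The part of immune, melanocyte, endothelial, erythroid or neural cells in the results was not tested.

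A gene is called when limma's test, fitted to log2(FPKM + 1) with the means of the 4 groups, gave a Benjamini-Hochberg adjusted p below 0.05 over the 12364 genes. Of the genes tested, 53.8% were called: 3973 (32.1%) were higher in in vitro iSEPs and 2684 (21.7%) were lower. The median log2 difference over all genes was 0.15, and the share of higher genes among those called, 59.7%, fell to 47.3% when each library was shifted to a common median and to 49.9% after quantile normalization. The 3 values of a group did not overlap those of the other group for 63.7% of the genes. A difference of at least 1 on the log2 scale was reached by 1762 of the higher and 1647 of the lower genes, one of at least 3 by 431 and 307, and one of at least 5 by 107 and 58. Without the library labelled in vitro iSEP of mouse 3, 3461 genes were higher and 2431 lower. In bulk RNA of this kind, fewer cells of a type and less RNA per cell cannot be told apart.

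**Figure D1:**
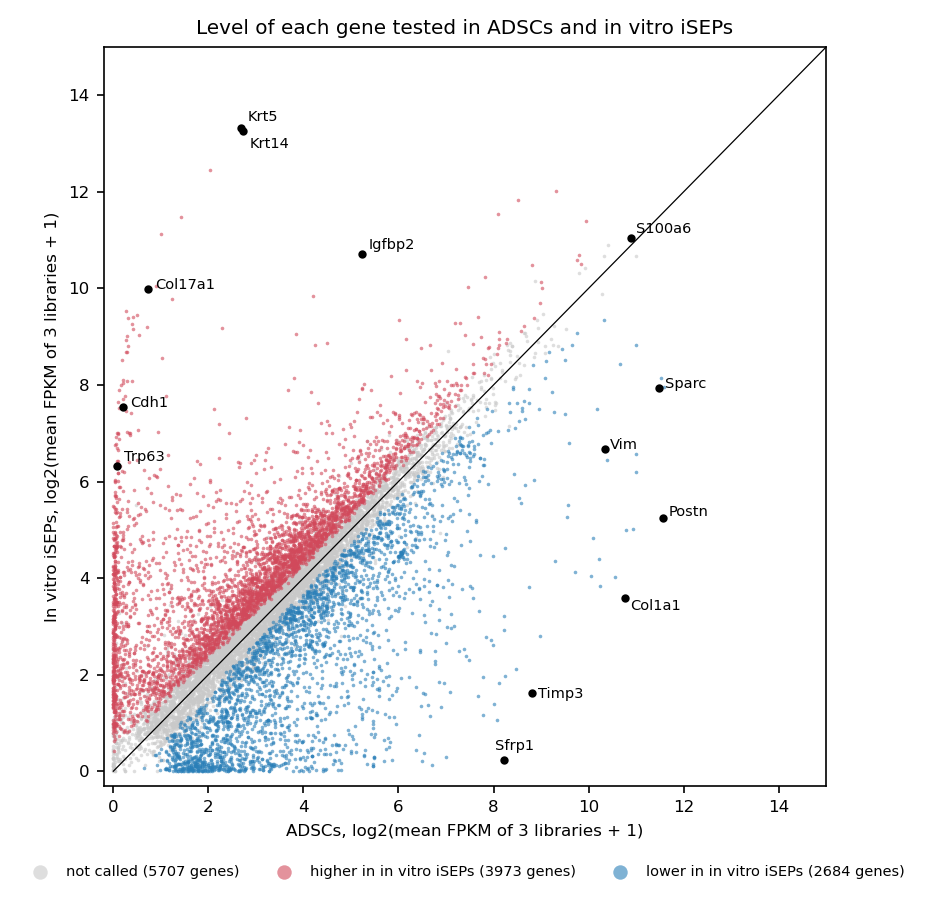
Mean level of each of the 12364 tested genes in ADSCs (horizontal axis) and in in vitro iSEPs (vertical axis), both as log2(mean FPKM + 1), coloured by call: 3973 higher, 2684 lower and 5707 not called. The line marks equal levels; keratins Krt5 and Krt14 and the hemidesmosome gene Col17a1 lie near the upper left, and Col1a1, Postn, Timp3 and Sfrp1 near the lower right.

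The genes with the largest rises mostly encode the structural parts of a basal epithelial cell. Krt5, the basal-layer type II keratin (chromosome 15, 101707070 to 101712891 in mm10, minus strand), was at 5.76, 5.30 and 5.14 FPKM in ADSCs and 10691, 8842 and 11290.4 FPKM in in vitro iSEPs (log2 difference 10.64, SE 0.34, adjusted p = 1.26e-09). Its type I partner Krt14 (chromosome 11, 100203162 to 100206030, minus strand) was at 5.75, 4.90 and 6.15 FPKM in ADSCs and 10249, 8388 and 10813 FPKM in in vitro iSEPs (log2 difference 10.54, SE 0.22, adjusted p = 8.62e-11). The groups lay far apart for both genes: the ADSC level amounted to 0.0525% of the in vitro iSEP level for Krt5 and 0.0570% for Krt14. Krt17, a keratin of basal and wound-activated cells, was at 3.17, 2.98 and 3.201 FPKM in ADSCs and 5002, 5381 and 6416 FPKM in in vitro iSEPs (log2 difference 10.40). Perp, a tetraspan protein of desmosomes, was at 2.35, 1.53 and 1.13 FPKM in ADSCs and 3542, 1992 and 3059 FPKM in in vitro iSEPs (log2 difference 10.05). Col17a1, the transmembrane collagen of hemidesmosomes, was at 0.607, 0.722 and 0.646 FPKM in ADSCs and 1129, 1023 and 886 FPKM in in vitro iSEPs (log2 difference 9.25, SE 0.15, adjusted p = 1.41e-11). These 3 rose by 9.25 to 10.40 on the log2 scale, with no overlap between the groups. Dsp, desmoplakin, which anchors keratin filaments in desmosomes (chromosome 13, 38151294 to 38198577, plus strand), was at 0.331, 0.367 and 0.292 FPKM in ADSCs and 557, 511 and 647 FPKM in in vitro iSEPs (log2 difference 8.74, SE 0.10, adjusted p = 8.65e-13). Sfn, stratifin, an epithelial adaptor protein and p53 target (chromosome 4, 133600556 to 133602168, minus strand), was at 1.13, 1.37 and 1.58 FPKM in ADSCs and 1095, 785 and 754 FPKM in in vitro iSEPs (log2 difference 8.52, SE 0.19, adjusted p = 1.46e-10). Among further members of the 15 largest rises, Krt6a, Lgals7, Krt16, Dmkn, Ly6d and Defb1 rose by 8.54 to 10.07 on the log2 scale. Krtdap rose by 8.68, a value that one culture set in part (7.92 without the in vitro iSEPs of mouse 1 and 9.71 without those of mouse 2).

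At the other end stood secreted and matrix genes. Sfrp1, a secreted WNT antagonist, was at 555, 204 and 136 FPKM in ADSCs and 0.17, 0.199 and 0.166 FPKM in in vitro iSEPs (log2 difference -7.73, SE 0.39, adjusted p = 3.45e-08), the largest fall by this measure. Col1a1, the main chain of type I collagen (chromosome 11, 94936224 to 94953042, plus strand), was at 1847, 1590.1 and 1779 FPKM in ADSCs and 4.63, 15.98 and 12.3 FPKM in in vitro iSEPs (log2 difference -7.33, SE 0.45, adjusted p = 1.80e-07). The ADSC values lay close together, and mouse 1 was the lowest in vitro iSEP culture. Col3a1, type III collagen (chromosome 1, 45311538 to 45349706, plus strand), was at 2278, 1313 and 901 FPKM in ADSCs and 13.7, 18.3 and 13.4 FPKM in in vitro iSEPs (log2 difference -6.44, SE 0.39, adjusted p = 1.62e-07). Timp3, an inhibitor of metalloproteinases held in the matrix, was at 388, 452 and 509 FPKM in ADSCs and 0.675, 2.74 and 2.79 FPKM in in vitro iSEPs (log2 difference -7.28, SE 0.57, adjusted p = 1.30e-06). All 4 genes fell in every mouse, and no in vitro iSEP value reached the lowest ADSC value. Postn, periostin, a matricellular protein of connective tissue (chromosome 3, 54361107 to 54391041, plus strand), was at 3019, 4045 and 2078 FPKM in ADSCs and 9.59, 61.5 and 39.5 FPKM in in vitro iSEPs (log2 difference -6.62, SE 0.62, adjusted p = 5.58e-06). Its log2 difference was -5.87 without the in vitro iSEPs of mouse 1, where the remaining level was lowest. Cnn1, calponin of the contractile apparatus, was at 181, 268 and 361 FPKM in ADSCs and 0.768, 1.94 and 0.591 FPKM in in vitro iSEPs (log2 difference -7.01). The remaining members of the 15 largest falls were Mfap5, Loxl2, Col5a2, Col5a1, Fbn1, Ccdc80, Thy1, Mir6950 and Itga11, which fell by 6.16 to 6.74 on the log2 scale. Mir6950 lies within the span of Loxl2, so its reads and those of Loxl2 cannot be separated here.

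Promoter sequence shows what stands in front of genes that moved furthest. RefSeq (GRCm38.p6) gave the 250 bases before the transcription start for 8 of the 15 largest rises and 7 of the 15 largest falls. Those of 4 risen and 2 fallen genes are written below, 5′ to 3′ on the strand of the gene, to show the basal keratin pair, 2 epithelial genes that hold a searched motif, and 2 stromal genes that hold one. Capitals mark matches to motifs.

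Krt5, chr15:101712906-101713155, minus strand: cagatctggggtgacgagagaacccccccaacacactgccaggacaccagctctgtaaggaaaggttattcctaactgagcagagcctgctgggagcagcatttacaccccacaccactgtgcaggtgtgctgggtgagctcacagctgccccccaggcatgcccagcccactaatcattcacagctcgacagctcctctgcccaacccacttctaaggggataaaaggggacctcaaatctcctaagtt

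Krt14, chr11:100206031-100206280, minus strand: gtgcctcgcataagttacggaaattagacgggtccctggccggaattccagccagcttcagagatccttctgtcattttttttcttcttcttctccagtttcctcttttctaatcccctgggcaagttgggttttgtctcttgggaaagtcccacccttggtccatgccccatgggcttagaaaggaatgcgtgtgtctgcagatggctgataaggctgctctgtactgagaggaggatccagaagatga

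Dsp, chr13:38151044-38151293, plus strand: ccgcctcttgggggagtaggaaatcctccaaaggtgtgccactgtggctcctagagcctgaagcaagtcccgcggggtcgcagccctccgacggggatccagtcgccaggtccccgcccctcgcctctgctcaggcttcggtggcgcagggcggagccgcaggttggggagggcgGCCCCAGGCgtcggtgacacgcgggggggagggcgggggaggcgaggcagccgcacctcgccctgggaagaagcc

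Sfn, chr4:133602169-133602418, minus strand: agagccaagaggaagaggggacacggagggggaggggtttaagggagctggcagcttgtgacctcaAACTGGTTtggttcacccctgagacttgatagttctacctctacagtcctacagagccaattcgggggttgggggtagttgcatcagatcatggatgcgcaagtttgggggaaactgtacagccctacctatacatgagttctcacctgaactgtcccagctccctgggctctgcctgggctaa

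Postn, chr3:54360857-54361106, plus strand: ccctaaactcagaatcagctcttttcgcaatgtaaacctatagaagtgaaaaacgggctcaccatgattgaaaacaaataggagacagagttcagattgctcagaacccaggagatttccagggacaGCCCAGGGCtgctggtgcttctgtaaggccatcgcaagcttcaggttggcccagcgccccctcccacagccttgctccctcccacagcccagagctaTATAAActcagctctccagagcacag

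Col3a1, chr1:45311288-45311537, plus strand: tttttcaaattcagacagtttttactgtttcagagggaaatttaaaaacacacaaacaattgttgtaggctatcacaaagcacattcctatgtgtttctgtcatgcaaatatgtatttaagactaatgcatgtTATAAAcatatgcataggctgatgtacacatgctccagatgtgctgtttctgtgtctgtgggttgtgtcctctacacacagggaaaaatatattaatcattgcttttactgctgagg

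The motifs searched on both strands were GCCNNNGGC for AP-2, AACCNGTT for Grainyhead, CACGTG for the E-box, TGANTCA for AP-1 and TATAAA for the TATA box, with overlapping matches counted. In Dsp the AP-2 match begins 75 bases before the start, and 72.4% of its window is G or C. In Sfn the Grainyhead match, found on the opposite strand, lies 184 bases before the start. The Postn window holds an AP-2 match at 123 and a TATA match at 26 bases before the start, and the Col3a1 window, 35.2% G or C, holds a TATA match at 117. Neither keratin window holds any of the 5 motifs. Over all 32851 promoter windows of that length, AP-2 letters occurred in 13.7%, Grainyhead in 1.79%, the E-box in 6.02%, AP-1 in 6.75% and TATA in 12.4%. Among the 8 windows of risen genes, 1 held AP-2, 1 Grainyhead, 2 AP-1 and 2 TATA letters, and among the 7 of fallen genes 4 held AP-2 and 2 TATA letters. A match describes the letters and shows no binding, and too few windows were matched to compare the sets.

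Genes were then read in groups by role. Counts are of members that passed the filter on low values, and the background is 32.1% higher and 21.7% lower. A member near 0 in ADSCs can pass that filter only through the other groups, so it could hardly be called lower. Likewise, a member near 0 outside ADSCs could hardly be called higher. With no filter, 52.5% of all called genes were higher, against 59.7% with it. Group counts with no filter were not made. Epithelial structural groups held mostly higher genes, and matrix and stromal groups mostly lower ones.

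**Figure D2:**
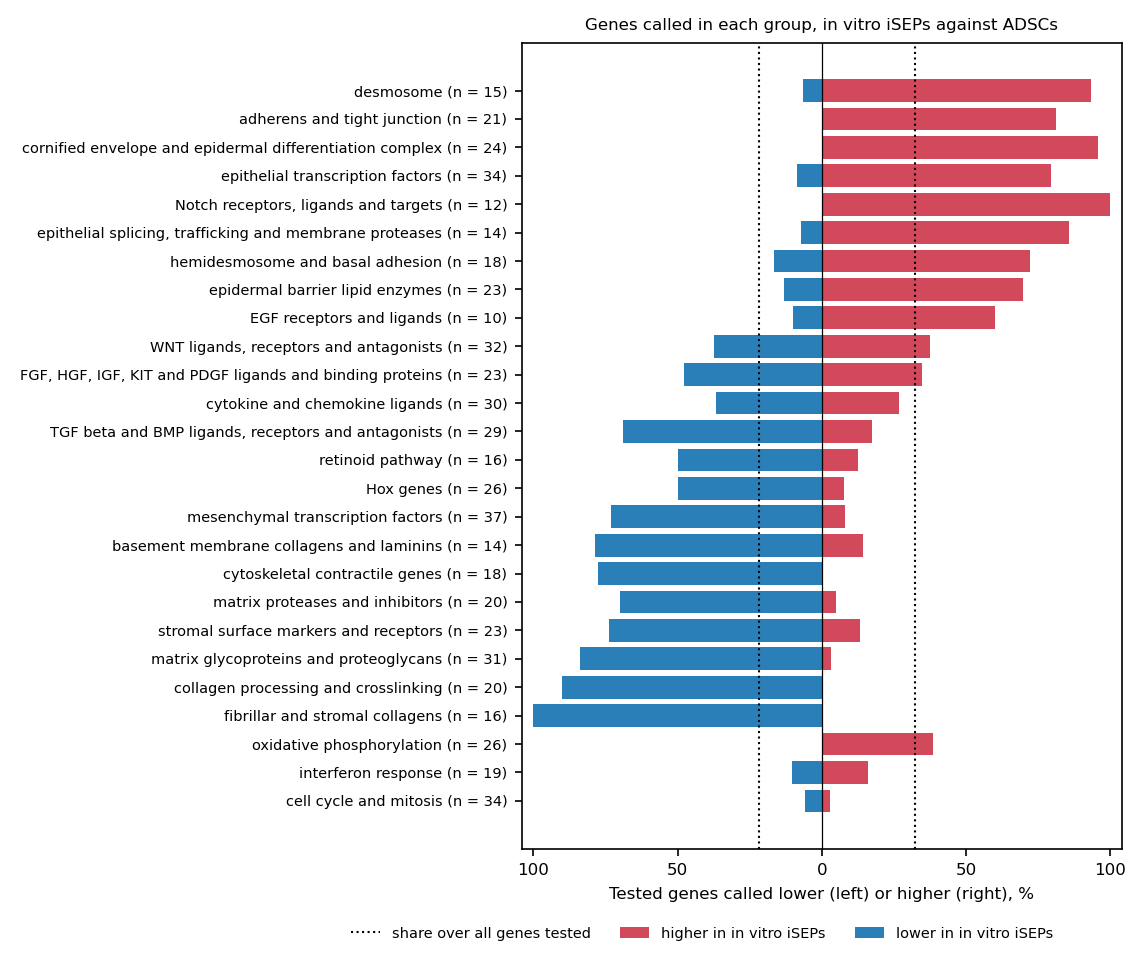
Share of the tested members called higher or lower in in vitro iSEPs than in ADSCs for 26 gene groups (bars, percent of tested members). Dotted lines mark the shares over all tested genes, 32.1% higher and 21.7% lower; desmosome, cornified envelope and Notch groups lie far above the first line, and collagen groups far above the second.

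Keratins of basal and wound-activated cells rose together. All 4 wound and stress keratins were called higher, with a median log2 difference of 9.50 against 0.15 for all genes. Krt6a was at 0.782, 0.773 and 1.48 FPKM in ADSCs and 1516, 2094 and 3090.5 FPKM in in vitro iSEPs (log2 difference 10.07, adjusted p = 2.48e-10). Krt16, its type I partner in activated epidermis, was at 0.282, 0.306 and 0.138 FPKM in ADSCs and 829.8, 301 and 868 FPKM in in vitro iSEPs (log2 difference 8.92, adjusted p = 7.00e-08). Krt6b was at 0.014, 0.046 and 0.08 FPKM in ADSCs and 164, 47.9 and 148 FPKM in in vitro iSEPs (log2 difference 6.67, adjusted p = 0.000116). In all 3 the in vitro iSEP cultures differed among themselves, and mouse 2 was lowest for Krt6b and Krt16. Krt80, a keratin of differentiating epithelia, was at 2.60, 3.73 and 4.04 FPKM in ADSCs and 62.5, 33.0 and 46.4 FPKM in in vitro iSEPs (log2 difference 3.41, adjusted p = 2.31e-05). Of the 5 keratins of simple epithelia 1 was higher and 2 were lower, Krt20 and Krt19, while Krt8 and Krt18 were not called. Leaving out the ADSCs of mouse 2, those of mouse 3 or the in vitro iSEPs of mouse 3 ended the call of Krt19 (adjusted p = 0.0567, 0.0571 and 0.0681). Krt18 was at 3.16, 0.171 and 0.515 FPKM in ADSCs and 4.68, 24.4 and 8.87 FPKM in in vitro iSEPs (adjusted p = 0.0692). Krt7 rose from 0.657, 0.67 and 1.34 to 15.3, 63.1 and 123 FPKM (log2 difference 4.76, adjusted p = 0.000468), and its log2 difference was 5.58 without the in vitro iSEPs of mouse 1 and 4.12 without those of mouse 3. Krt20, a keratin of Merkel and intestinal cells, was at 4.06, 5.94 and 5.71 FPKM in ADSCs and was listed at 0 in all 3 in vitro iSEP libraries (adjusted p = 4.27e-08). Krt15, a basal keratin, was called higher at an adjusted p of 0.0234 (log2 difference 3.26), with 66.8 FPKM in the in vitro iSEPs of mouse 1 and 1.72 and 3.98 FPKM in the others. Without the culture of mouse 1 it was not called (log2 difference 1.86, adjusted p = 0.0642), and without the ADSCs of mouse 1, 2 or 3 the adjusted p was 0.0573, 0.0571 and 0.0566. Its log2 difference was 4.18 when the in vitro iSEPs of mouse 2 were left out.

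Genes for adhesion to the basement membrane rose in their epithelial members, integrins and laminins among them. Of 18 hemidesmosome and basal adhesion genes, 13 were higher and 3 lower (Itgb1, Itgav and Itgb5), with a median log2 difference of 4.40. Itgb4, the integrin chain found in hemidesmosomes, was at 0.315, 0.285 and 0.228 FPKM in ADSCs and 96.1, 162 and 126 FPKM in in vitro iSEPs (log2 difference 6.63, SE 0.17, adjusted p = 2.38e-10). Itga6, its partner chain, was at 1.04, 0.96 and 0.902 FPKM in ADSCs and 85.4, 90.9 and 51.2 FPKM in in vitro iSEPs (log2 difference 5.24, adjusted p = 2.00e-09). Both rose with no overlap between groups, while keratinocytes held more of Itgb4, at a mean of 233 FPKM (in vitro iSEPs against keratinocytes, log2 difference -0.89, adjusted p = 0.00888). Chains of the epithelial laminin rose as well. Lama3 was at 0.159, 0.179 and 0.24 FPKM in ADSCs and 203, 227 and 117 FPKM in in vitro iSEPs (log2 difference 7.21). Lamb3 was at 0.361, 0.29 and 0.206 FPKM in ADSCs and 224, 181 and 103 FPKM in in vitro iSEPs (log2 difference 6.98). Mouse 3 was the lowest in vitro iSEP culture for both chains. Dst, which encodes the plakin that links keratin to hemidesmosomes, was at 3.03, 3.26 and 3.72 FPKM in ADSCs and 158, 204 and 176 FPKM in in vitro iSEPs (log2 difference 5.37, adjusted p = 4.20e-09). Anchoring parts on both sides of the membrane rose. Col7a1, the anchoring fibril collagen, was at 3.74, 1.87 and 2.05 FPKM in ADSCs and 70.1, 91.7 and 83.5 FPKM in in vitro iSEPs (log2 difference 4.57, adjusted p = 1.23e-07). Fermt1, an epithelial kindlin that activates integrins, was at 0.006, 0 and 0.007 FPKM in ADSCs and 9.44, 13.8 and 9.55 FPKM in in vitro iSEPs (log2 difference 3.55). Itgb1, the chain shared by many matrix receptors, fell from 554, 891 and 744 to 429.7, 394 and 275 FPKM (log2 difference -0.99). Thus the shared integrin chain went against the epithelial ones. Cd151, a tetraspanin partner of integrins, was not called, at 104, 105.2 and 112 FPKM in ADSCs and 89.3, 106 and 81.8 FPKM in in vitro iSEPs. Plec, which encodes plectin, was not called either, at 35.6, 28.1 and 46.0 FPKM in ADSCs and 41.5, 51.9 and 42.1 FPKM in in vitro iSEPs.

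Desmosomes carry the tension between keratinocytes, and 14 of their 15 genes were higher and 1 lower, Pkp2 (median log2 difference 5.91). Dsg3, the basal desmoglein, was at 0.145, 0.174 and 0.104 FPKM in ADSCs and 311, 333 and 453 FPKM in in vitro iSEPs (log2 difference 8.31, adjusted p = 1.96e-10). Its partner Dsc3 was at 0.136, 0.161 and 0.047 FPKM in ADSCs and 236, 273 and 254 FPKM in in vitro iSEPs (log2 difference 7.84, adjusted p = 1.46e-10). Pkp1, plakophilin, was at 0.223, 0.22 and 0.208 FPKM in ADSCs and 423, 325 and 479 FPKM in in vitro iSEPs (log2 difference 8.38, adjusted p = 8.62e-11). In each case the highest ADSC value was below 0.3 FPKM and the lowest in vitro iSEP value above 200 FPKM. Pkp3 was at 0.222, 0.41 and 0.139 FPKM in ADSCs and 141, 113 and 129.6 FPKM in in vitro iSEPs (log2 difference 6.68). Jup, plakoglobin, which also serves adherens junctions, was already at 11.3, 10.9 and 12.9 FPKM in ADSCs and reached 227, 207 and 275 FPKM (log2 difference 4.22). The envelope plakins Ppl and Evpl rose by 6.49 and 4.95 on the log2 scale. For Dsp the in vitro iSEPs exceeded keratinocytes, at 376, 374 and 374 FPKM (log2 difference 0.60, adjusted p = 0.00451).

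Junctions of the lateral membrane followed. Of 21 adherens and tight junction genes, 17 were higher and none was lower (0 of 21), with a median log2 difference of 3.15. Cdh1, E-cadherin, was at 0.121, 0.162 and 0.17 FPKM in ADSCs and 249, 136 and 170.0 FPKM in in vitro iSEPs (log2 difference 7.29, SE 0.26, adjusted p = 2.98e-09). Cdh2, N-cadherin, a stromal and neural cadherin, was at 23.0, 24.3 and 34.5 FPKM in ADSCs and 2.44, 5.57 and 1.62 FPKM in in vitro iSEPs (log2 difference -2.84, SE 0.61, adjusted p = 0.00239). The groups did not overlap for either gene, and the more abundant of the 2 cadherins per length was Cdh2 in ADSCs and Cdh1 in in vitro iSEPs. Cdh3, P-cadherin, present in ADSCs at 20.8, 21.5 and 22.2 FPKM, was at 45.7, 50.2 and 47.0 FPKM in in vitro iSEPs (log2 difference 1.11). Cldn1, the tight junction claudin of the epidermal barrier, was at 0.126, 0.126 and 0.133 FPKM in ADSCs and 219, 141 and 187 FPKM in in vitro iSEPs (log2 difference 7.32, adjusted p = 1.01e-07). Cldn4, a claudin of many glandular and surface epithelia, was at 0.26, 0.151 and 0.238 FPKM in ADSCs and 199.7, 265 and 341 FPKM in in vitro iSEPs (log2 difference 7.76, adjusted p = 2.99e-06). Both claudins were near 0 in every ADSC library. Epcam, a surface marker of many epithelia, was at 0.077, 0.116 and 0.122 FPKM in ADSCs and 17.8, 37.6 and 18.2 FPKM in in vitro iSEPs (log2 difference 4.45, SE 0.73, adjusted p = 0.0004), against a mean of 146 FPKM in keratinocytes. Ocln, occludin, was at 0.01, 0.043 and 0.068 FPKM in ADSCs and 7.31, 8.38 and 13.6 FPKM in in vitro iSEPs (log2 difference 3.33). Cldn3 was not called, at 0.174, 0.027 and 0.057 FPKM in ADSCs and 0.371, 18 and 7.74 FPKM in in vitro iSEPs, with mouse 1 far below the other cultures. Among connexins, which form gap junctions, 5 of 7 were higher (3 without the in vitro iSEPs of mouse 2) and 1, Gjc1, was lower. Gja1 had the highest level of the connexins in in vitro iSEPs. Gja1 was at 22.7, 14.6 and 18.7 FPKM in ADSCs and 313, 123 and 151 FPKM in in vitro iSEPs (log2 difference 3.22, adjusted p = 0.00019). Gjc1 fell from 8.09, 6.94 and 8.24 to 0.375, 1.08 and 0.736 FPKM (log2 difference -2.36).

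Epithelial regulators of splicing, membrane traffic and surface proteolysis rose as well, 12 of 14 with 1 lower. Esrp1, which sets epithelial splice forms, was at 0.026, 0.102 and 0.039 FPKM in ADSCs and 49.7, 42.2 and 47.9 FPKM in in vitro iSEPs (log2 difference 5.49, SE 0.16, adjusted p = 4.37e-10). Rab25, an epithelial recycling GTPase, was at 0.06, 0 and 0.102 FPKM in ADSCs and 83.3, 73.5 and 99.2 FPKM in in vitro iSEPs (log2 difference 6.35, adjusted p = 2.78e-10). St14, the surface protease matriptase, was at 0.118, 0.128 and 0.072 FPKM in ADSCs and 45.6, 71.2 and 58.9 FPKM in in vitro iSEPs (log2 difference 5.73, adjusted p = 3.74e-09). Matriptase and the inhibitors that restrain it rose side by side. Spint2, the first such inhibitor, was at 0.367, 0.638 and 0.307 FPKM in ADSCs and 127, 140.4 and 133 FPKM in in vitro iSEPs (log2 difference 6.55, adjusted p = 1.76e-09). Spint1, the second, was at 0.125, 0.136 and 0.174 FPKM in ADSCs and 27.5, 34.5 and 20.7 FPKM in in vitro iSEPs (log2 difference 4.61, adjusted p = 9.30e-07). Ap1m2, an epithelial adaptor for basolateral sorting, was at 0.055, 0 and 0 FPKM in ADSCs and 44.4, 63.6 and 45.7 FPKM in in vitro iSEPs (log2 difference 5.66). Rbm47, an RNA-binding protein gene of low level, was the 1 lower gene, at 1.35, 1.17 and 1.54 FPKM in ADSCs and 0.599, 0.271 and 0.284 FPKM in in vitro iSEPs (log2 difference -0.77).

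Genes of the cornified envelope, the cross-linked shell of dead surface cells, were called higher in 23 of 24 cases with none lower (0), at a median log2 difference of 3.45. Without the in vitro iSEPs of mouse 1 the median was 2.77, with 20 higher, and without those of mouse 2 it was 4.28, with 23 higher. Sbsn, suprabasin, was at 15.8, 14.4 and 21.6 FPKM in ADSCs and 817, 744 and 1202 FPKM in in vitro iSEPs (log2 difference 5.65, adjusted p = 8.16e-09). Dmkn, dermokine, was at 0.432, 0.261 and 0.274 FPKM in ADSCs and 989.9, 374 and 672 FPKM in in vitro iSEPs (log2 difference 8.90, adjusted p = 8.25e-09). Sprr1b, a cross-linked envelope precursor, was at 0.077, 0.125 and 0.044 FPKM in ADSCs and 307, 112 and 289.5 FPKM in in vitro iSEPs (log2 difference 7.65, adjusted p = 1.97e-07). Of these 3, Sbsn alone was above 1 FPKM in every ADSC library, and in in vitro iSEPs it exceeded keratinocytes, whose mean was 281 FPKM (log2 difference 1.68, adjusted p = 0.00179). Ivl, involucrin of the early envelope, was at 0.082, 0.053 and 0.168 FPKM in ADSCs and 16.3, 10.4 and 3.65 FPKM in in vitro iSEPs (log2 difference 3.14). Tgm1, the transglutaminase that cross-links the envelope, was at 0.138, 0.137 and 0.157 FPKM in ADSCs and 25.3, 5.95 and 18.2 FPKM in in vitro iSEPs (log2 difference 3.73, adjusted p = 5.33e-05). Lypd3, a surface protein of suprabasal cells, was at 0.019, 0.105 and 0.044 FPKM in ADSCs and 137, 96.9 and 146 FPKM in in vitro iSEPs (log2 difference 6.90, adjusted p = 3.12e-09). Of 16 epidermal kallikreins and serpins, 14 were higher (median log2 difference 3.52, and 2.65 with 12 higher without the in vitro iSEPs of mouse 1). Mouse 2 was the lowest in vitro iSEP culture for 14 of the 16, against 26.9% of all genes. The kallikrein Klk14 was uneven between in vitro iSEP cultures, at 52.7, 1.32 and 13.2 FPKM (log2 difference 3.57, adjusted p = 0.0128). Klk8 was less so, at 49.2, 38.3 and 118 FPKM. Serpinb5, maspin, was at 0.123, 0.32 and 0.14 FPKM in ADSCs and 509.8, 379 and 339 FPKM in in vitro iSEPs (log2 difference 8.41, adjusted p = 3.33e-10). Spink5, an inhibitor of kallikreins, was at 0.027, 0.029 and 0.03 FPKM in ADSCs and 99.9, 40.1 and 100.2 FPKM in in vitro iSEPs (log2 difference 6.19, adjusted p = 2.32e-07). Serpinb2 was at 0.591, 0.399 and 0.894 FPKM in ADSCs and 590.0, 507 and 660.1 FPKM in in vitro iSEPs (log2 difference 8.50, adjusted p = 3.94e-10).

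Enzymes that make the lipids of the skin barrier moved less uniformly, with 16 of 23 higher and 3 lower (5 lower after median scaling). Cers3, which makes very long chain ceramides, was at 0.077, 0.126 and 0.088 FPKM in ADSCs and 48.5, 23.7 and 46.5 FPKM in in vitro iSEPs (log2 difference 5.14, adjusted p = 1.53e-08). Sult2b1, cholesterol sulfotransferase, was at 0.056, 0.181 and 0.095 FPKM in ADSCs and 21.2, 10.1 and 30.3 FPKM in in vitro iSEPs (log2 difference 4.15, adjusted p = 3.61e-06). All 3 cultures exceeded every ADSC library for both genes, and mouse 2 was lowest. Nipal4, a membrane protein tied to ichthyosis, was at 0.563, 0.88 and 0.936 FPKM in ADSCs and 36.8, 19.1 and 25.6 FPKM in in vitro iSEPs (log2 difference 3.93, adjusted p = 1.96e-07). The glucosylceramide synthase gene Ugcg fell from 91.9, 98.7 and 86.1 to 19.5, 9.88 and 10.3 FPKM (log2 difference -2.78, adjusted p = 1.21e-06). The 3 lower genes of the list were Ugcg, Cers4 and Smpd1. Of 12 S100 genes, small calcium-binding proteins, 8 were higher and 2 lower, S100a4 and S100a13. S100a14 was at 0.468, 0.476 and 0.434 FPKM in ADSCs and 618, 505 and 458 FPKM in in vitro iSEPs (log2 difference 8.49, adjusted p = 1.88e-10). S100a10 was at 275, 270.5 and 269 FPKM in ADSCs and 2865, 3519 and 2544 FPKM in in vitro iSEPs (log2 difference 3.44, adjusted p = 6.82e-08), and S100a4, a marker of fibroblasts, fell from 1098, 917 and 1459 to 72.6, 279 and 186 FPKM (log2 difference -2.86, adjusted p = 0.000175). S100a6 was abundant on both sides and was not called, at 1583, 1975 and 2163 FPKM in ADSCs and 2012, 2577 and 1756 FPKM in in vitro iSEPs.

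Transcription factors of epithelia were higher in 27 of 34 cases and lower in 3, Id1, Id2 and Id3 (5 lower after median scaling), with a median log2 difference of 2.60. Trp63, which encodes p63, was at 0.092, 0.02 and 0.063 FPKM in ADSCs and 105.1, 75.2 and 55.8 FPKM in in vitro iSEPs (log2 difference 6.19, SE 0.30, adjusted p = 3.05e-08). Grhl2 was at 0.006, 0.007 and 0.007 FPKM in ADSCs and 16.6, 13.2 and 12.3 FPKM in in vitro iSEPs (log2 difference 3.89, SE 0.16, adjusted p = 9.83e-09). Tfap2a was at 0.068, 0.074 and 0.011 FPKM in ADSCs and 34.99, 12.97 and 18.7 FPKM in in vitro iSEPs (log2 difference 4.35, SE 0.26, adjusted p = 1.59e-07). Myc, unlike these 3, was well expressed in ADSCs, at 19.9, 24.5 and 33.2 FPKM, and reached 153, 72.5 and 98.8 FPKM (log2 difference 1.99, SE 0.26, adjusted p = 6.63e-05). For all 4 factors mouse 1 gave the highest in vitro iSEP value. The mean in keratinocytes was 34.9 FPKM for Trp63, 19.4 for Grhl2, 24.7 for Tfap2a and 63.1 for Myc. Grhl1 and Grhl3 rose by 5.21 and 4.05, and Tfap2c, another AP-2 factor, by 3.80. Tfap2b was listed at 0 in all 6 libraries. Klf5, a basal epithelial Krüppel-like factor, was at 0.675, 0.673 and 1.06 FPKM in ADSCs and 92.9, 43.6 and 70.1 FPKM in in vitro iSEPs (log2 difference 5.22, adjusted p = 2.43e-07). Zfp750, a differentiation factor downstream of p63, was at 0.068, 0.021 and 0.033 FPKM in ADSCs and 37.8, 15.5 and 28.8 FPKM in in vitro iSEPs (log2 difference 4.68, adjusted p = 4.97e-07). Ovol1, a repressor of mesenchymal genes, was at 0.022, 0.012 and 0.012 FPKM in ADSCs and 35.01, 13.99 and 31.7 FPKM in in vitro iSEPs (log2 difference 4.68, adjusted p = 2.07e-07). Cebpa, which acts in both fat and epidermis, was at 5.48, 4.20 and 2.81 FPKM in ADSCs and 57.7, 31.5 and 48.3 FPKM in in vitro iSEPs (log2 difference 3.17, adjusted p = 2.35e-06). Id2, an inhibitor of helix-loop-helix factors, fell from 21.5, 21.1 and 14.7 to 2.21, 1.82 and 1.02 FPKM (log2 difference -2.91, adjusted p = 8.59e-07) and was also below keratinocytes (log2 difference -2.47, adjusted p = 0.000243).

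Mesenchymal factors showed the mirror pattern, with 27 of 37 lower and 3 higher (Snai2, Sox9 and Pitx1), at a median log2 difference of -1.47. Zeb1, a repressor of E-cadherin, was at 17.6, 13.3 and 13.6 FPKM in ADSCs and 0.921, 1.75 and 1.74 FPKM in in vitro iSEPs (log2 difference -2.69, SE 0.27, adjusted p = 1.04e-05). Zeb2 was at 16.6, 19.6 and 19.5 FPKM in ADSCs and 0.561, 1.13 and 1.04 FPKM in in vitro iSEPs (log2 difference -3.37, adjusted p = 1.05e-07). Snai1 was at 34.7, 13.8 and 19.6 FPKM in ADSCs and 0.773, 1.99 and 1.25 FPKM in in vitro iSEPs (log2 difference -3.28, adjusted p = 1.89e-05). Snai2, a SNAIL factor that keratinocytes also express, differed from these 3 and was at 25.8, 26.7 and 25.8 FPKM in ADSCs and 63.1, 58.7 and 49.5 FPKM in in vitro iSEPs (log2 difference 1.09, adjusted p = 0.00159), beside a keratinocyte mean of 50.5 FPKM. Ebf1, a factor of adipose precursors, was at 18.8, 18.4 and 20.6 FPKM in ADSCs and 0.188, 0.528 and 0.342 FPKM in in vitro iSEPs (log2 difference -3.91, adjusted p = 1.27e-09). Prrx1, a limb and connective tissue homeobox factor, was at 118, 93.4 and 83.3 FPKM in ADSCs and 8.41, 18.1 and 9.75 FPKM in in vitro iSEPs (log2 difference -2.98, adjusted p = 9.46e-05). Twist1 was at 34.4, 33.3 and 26.5 FPKM in ADSCs and 8.58, 4.15 and 8.72 FPKM in in vitro iSEPs (log2 difference -2.04, adjusted p = 0.000599), and its level in in vitro iSEPs remained above that in keratinocytes, 0.714, 0.723 and 0.715 FPKM (log2 difference 2.19, adjusted p = 0.00411). Creb3l1, which drives secretion of collagen, was at 46.5, 36.0 and 53.9 FPKM in ADSCs and 2.42, 1.85 and 2.45 FPKM in in vitro iSEPs (log2 difference -3.83, adjusted p = 2.01e-08). Sox9, known from cartilage and hair follicle, was at 8.64, 3.15 and 3.31 FPKM in ADSCs and 28.4, 20.8 and 17 FPKM in in vitro iSEPs (log2 difference 2.02, adjusted p = 0.00029).

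**Figure D3:**
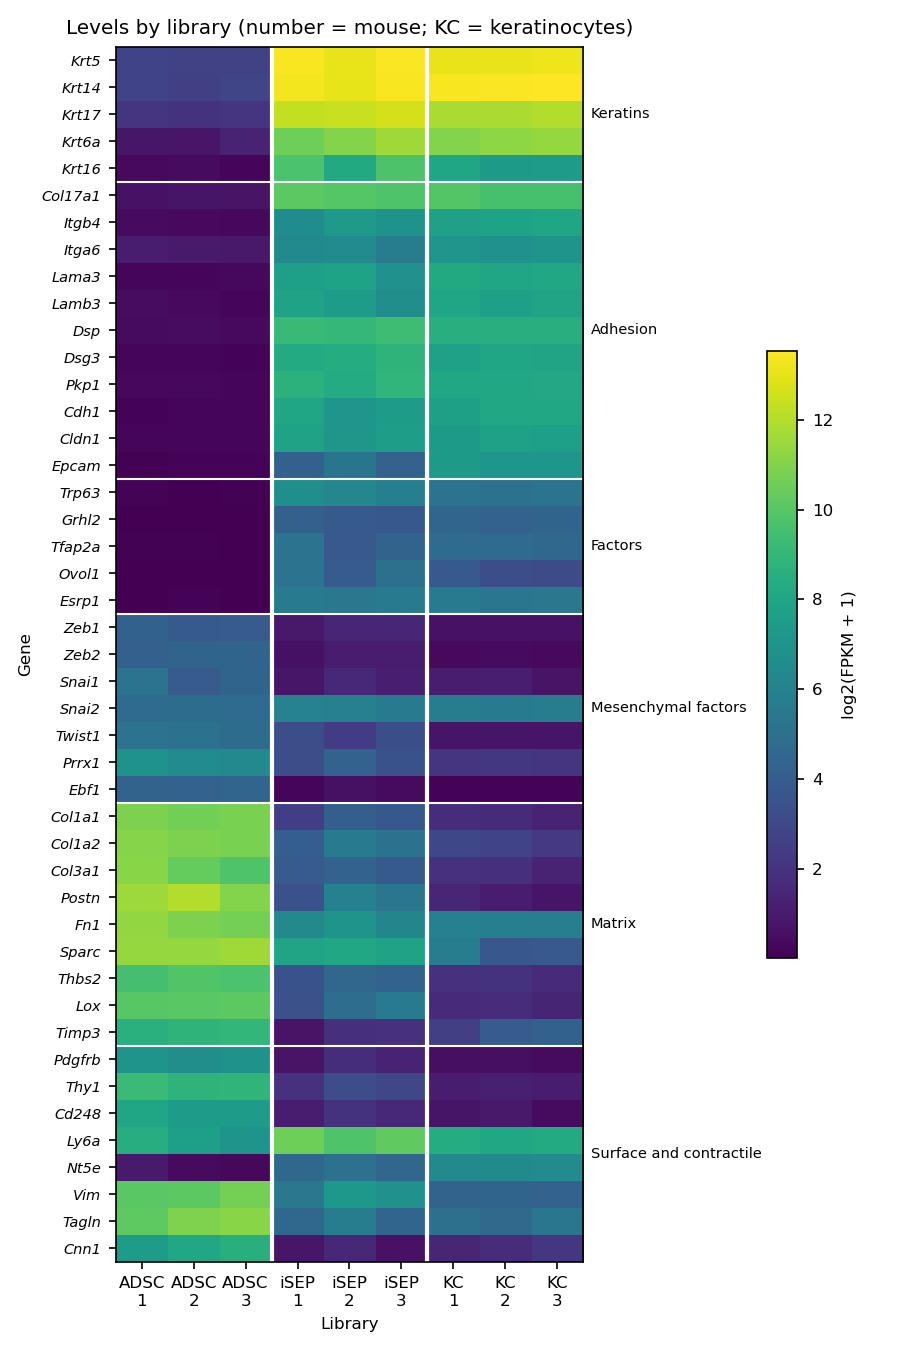
Level, as log2(FPKM + 1), of keratin, adhesion, epithelial factor, mesenchymal factor, matrix, surface and contractile genes (rows) in the 3 ADSC, 3 in vitro iSEP and 3 keratinocyte libraries (columns), from dark (low) to bright (high) on the colour scale. The in vitro iSEP and keratinocyte columns share high keratins and adhesion genes, while matrix genes such as Sparc, 222 to 272 FPKM in in vitro iSEPs, are brightest in ADSCs.

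All 16 fibrillar and stromal collagens were called lower, at a median log2 difference of -3.53, where 21.7% of all genes were lower. Col1a2, the second chain of type I collagen, was at 2173, 1860.1 and 1799 FPKM in ADSCs and 15.7, 45.8 and 33.1 FPKM in in vitro iSEPs (log2 difference -6.02, SE 0.61, adjusted p = 9.45e-06). Col5a1, a chain of type V collagen that starts fibrils, was at 342, 324 and 396 FPKM in ADSCs and 1.55, 4.53 and 3.91 FPKM in in vitro iSEPs (log2 difference -6.43, adjusted p = 7.02e-09). Its partner Col5a2 was at 1084, 1467 and 1094 FPKM in ADSCs and 12.8, 18.8 and 8.22 FPKM in in vitro iSEPs (log2 difference -6.47, adjusted p = 2.36e-06). Mouse 1 was lowest for the type I chains and for Col5a1 among in vitro iSEPs. Col14a1, a collagen bound to fibril surfaces, was at 24.03, 15 and 9.12 FPKM in ADSCs and 0.006, 0.078 and 0.069 FPKM in in vitro iSEPs (log2 difference -3.92, adjusted p = 2.45e-07). Col8a1, a network-forming collagen, was even across libraries on both sides, at 127, 128 and 127 FPKM in ADSCs and 5.81, 4.92 and 5.20 FPKM in in vitro iSEPs (log2 difference -4.35, SE 0.13, adjusted p = 7.12e-10). Col6a3 was at 147, 80.8 and 134 FPKM in ADSCs and 9.99, 17.02 and 12.5 FPKM in in vitro iSEPs (log2 difference -3.09, adjusted p = 0.000123). The falls did not reach the keratinocyte level for every collagen: Col3a1 stayed above that in keratinocytes, 2.78, 2.55 and 1.60 FPKM (log2 difference 2.29, adjusted p = 0.00511).

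Genes of the basement membrane fell in their stromal members. Of 14, 11 were lower and 2 higher. Nid1, nidogen, which links laminin to collagen, was at 249, 243 and 264 FPKM in ADSCs and 2.94, 6.86 and 5.63 FPKM in in vitro iSEPs (log2 difference -5.42, adjusted p = 3.65e-06). Lama4, a laminin chain of mesenchyme and vessels, was at 51.7, 35.1 and 39.1 FPKM in ADSCs and 0.292, 1.06 and 0.792 FPKM in in vitro iSEPs (log2 difference -4.65, adjusted p = 1.07e-08). Lama2, the chain of muscle and nerve, was at 8.34, 8.91 and 9.67 FPKM in ADSCs and 0.048, 0.145 and 0.142 FPKM in in vitro iSEPs (log2 difference -3.16, adjusted p = 2.30e-09). Both stromal laminin chains came down to 1.06 FPKM or less. Col4a1, type IV collagen, was at 416, 436 and 539 FPKM in ADSCs and 52.7, 88.4 and 52.3 FPKM in in vitro iSEPs (log2 difference -2.86, adjusted p = 0.00171). Col18a1, whose end fragment is endostatin, was 1 of the 2 higher genes, at 7.92, 5.79 and 3.95 FPKM in ADSCs and 139, 198 and 141 FPKM in in vitro iSEPs (log2 difference 4.56, SE 0.27, adjusted p = 1.24e-07). The other was Agrn, agrin, at 6.92, 4.65 and 4.97 FPKM in ADSCs and 76.6, 43.8 and 25.9 FPKM in in vitro iSEPs (log2 difference 2.82, adjusted p = 6.42e-05). Set beside Lama3 and Lamb3 above, Lama4 and Lama2 were lower and the epithelial chains higher.

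Among matrix glycoproteins and proteoglycans, 26 of 31 were lower (median -3.53, and -4.16 after quantile normalization). The 1 higher gene, Ltbp1, which holds TGF beta in the matrix, lost its call after median scaling and without any 1 of 4 libraries, with adjusted p up to 0.121 without the ADSCs of mouse 2. Fn1, fibronectin, was at 2561, 1897 and 1654 FPKM in ADSCs and 82.0, 127 and 73.2 FPKM in in vitro iSEPs (log2 difference -4.44, SE 0.89, adjusted p = 0.00148). Sparc, which binds collagen, was at 2716, 2734 and 3152 FPKM in ADSCs and 241, 272 and 222 FPKM in in vitro iSEPs (log2 difference -3.54, SE 0.54, adjusted p = 0.00023). Thbs2, thrombospondin, was at 745, 946 and 827 FPKM in ADSCs and 9.72, 21.2 and 18.5 FPKM in in vitro iSEPs (log2 difference -5.65, adjusted p = 9.17e-09). Sparc and Thbs2 remained above their keratinocyte levels, 52.0, 11.8 and 12.7 FPKM for Sparc (log2 difference 3.55, adjusted p = 0.00307) and 2.85, 2.995 and 2.06 FPKM for Thbs2 (log2 difference 2.21, adjusted p = 0.000479). Fbn1, fibrillin of microfibrils, was at 345, 278 and 288 FPKM in ADSCs and 1.28, 4.39 and 3.02 FPKM in in vitro iSEPs (log2 difference -6.37, adjusted p = 7.26e-08). Mfap5, a microfibril protein, was at 272, 309.7 and 191 FPKM in ADSCs and 0.223, 1.98 and 2.68 FPKM in in vitro iSEPs (log2 difference -6.74, adjusted p = 3.48e-08). Prelp and Fmod, small proteoglycans of connective tissue, fell by 5.21 and 5.59 on the log2 scale. Dcn, decorin, was not called, at 116, 70.7 and 27.2 FPKM in ADSCs and 17.96, 30.2 and 24.4 FPKM in in vitro iSEPs: its ADSC level differed widely between mice. Efemp1, fibulin, was not called either, at 142, 41.6 and 34.1 FPKM in ADSCs and 32.1, 117 and 66.2 FPKM in in vitro iSEPs. Tgfbi, an adhesion protein induced by TGF beta, was not called, at 36.1, 8.603 and 10.4 FPKM in ADSCs and 25.8, 24.4 and 23.6 FPKM in in vitro iSEPs.

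Enzymes that modify collagen were lower too, 18 of 20 lower and none higher (0). Loxl2, a lysyl oxidase that cross-links collagen, was at 159, 241 and 255 FPKM in ADSCs and 0.626, 1.86 and 1.23 FPKM in in vitro iSEPs (log2 difference -6.62, adjusted p = 9.60e-06). Adamts2, which trims procollagen, was at 71.7, 41.9 and 39.2 FPKM in ADSCs and 0.237, 0.706 and 0.74 FPKM in in vitro iSEPs (log2 difference -5.02, adjusted p = 1.25e-08). P4ha1, prolyl hydroxylase, was at 115, 121 and 110.3 FPKM in ADSCs and 8.43, 12.01 and 7.33 FPKM in in vitro iSEPs (log2 difference -3.53, adjusted p = 6.92e-08). For all 3 enzymes, every in vitro iSEP value lay below the lowest ADSC value. Serpinh1, the collagen chaperone of the endoplasmic reticulum, was at 1437, 1644 and 1751 FPKM in ADSCs and 336, 386 and 311 FPKM in in vitro iSEPs (log2 difference -2.22, SE 0.18, adjusted p = 1.72e-06). Loxl4 was not called, at 13.6, 14.1 and 16.96 FPKM in ADSCs and 11.6, 13.2 and 17.4 FPKM in in vitro iSEPs. Of 20 matrix proteases and inhibitors, 14 were lower and 1 higher. Mmp2, a gelatinase, was at 282, 160.2 and 149 FPKM in ADSCs and 30.3, 43.2 and 31.2 FPKM in in vitro iSEPs (log2 difference -2.42, adjusted p = 0.000318), still above keratinocytes (5.02, 5.74 and 4.54 FPKM, log2 difference 2.54, adjusted p = 0.00296). Adam19, a membrane metalloprotease, was at 47.8, 56.6 and 57.6 FPKM in ADSCs and 0.265, 0.913 and 0.619 FPKM in in vitro iSEPs (log2 difference -5.12, adjusted p = 6.70e-09). Mmp2 fell least of the proteases named here. Ctsk, the collagen-degrading cathepsin, was at 125, 113 and 83.6 FPKM in ADSCs and 2.67, 7.31 and 3.84 FPKM in in vitro iSEPs (log2 difference -4.34, adjusted p = 1.68e-06). Mmp10, a stromelysin of wound keratinocytes, was the 1 higher gene, at 0.255, 2.47 and 0.811 FPKM in ADSCs and 14.3, 14.5 and 18.4 FPKM in in vitro iSEPs (log2 difference 3.06, adjusted p = 0.000297).

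Surface markers by which stromal cells are sorted were lower in 17 of 23 cases and higher in 3. Pdgfra, the receptor that marks these ADSCs, was at 46.0, 23.4 and 22.8 FPKM in ADSCs and 1.78, 4.74 and 3.18 FPKM in in vitro iSEPs (log2 difference -2.89, SE 0.35, adjusted p = 3.87e-05). Pdgfrb, its relative on pericytes and fibroblasts, was at 126, 102 and 123 FPKM in ADSCs and 0.665, 2.38 and 1.47 FPKM in in vitro iSEPs (log2 difference -5.61, adjusted p = 1.62e-08). Thy1 was at 591, 448 and 471 FPKM in ADSCs and 2.79, 8.37 and 6.78 FPKM in in vitro iSEPs (log2 difference -6.26, SE 0.39, adjusted p = 1.93e-07). Cd248, endosialin, was at 256, 174 and 182 FPKM in ADSCs and 1.02, 2.91 and 1.87 FPKM in in vitro iSEPs (log2 difference -6.16, adjusted p = 1.58e-08). None of these 4 overlapped between the groups. Cdh11, a mesenchymal cadherin, was at 128, 93.5 and 82.6 FPKM in ADSCs and 3.22, 9.76 and 5.86 FPKM in in vitro iSEPs (log2 difference -3.89, adjusted p = 2.50e-05). The 3 markers that were higher are not confined to stroma. Ly6a, the Sca-1 antigen, was at 351, 201 and 128 FPKM in ADSCs and 1527, 901 and 1187 FPKM in in vitro iSEPs (log2 difference 2.49, adjusted p = 0.000525). Nt5e, which encodes CD73, was at 0.993, 0.305 and 0.211 FPKM in ADSCs and 23.3, 33.8 and 21.4 FPKM in in vitro iSEPs (log2 difference 4.18, adjusted p = 1.24e-06). Mcam, the CD146 antigen, was at 18.6, 16.3 and 30.6 FPKM in ADSCs and 67.4, 104 and 95.8 FPKM in in vitro iSEPs (log2 difference 2.01, adjusted p = 0.000115). Cd44, a hyaluronan receptor, was not called, at 68.3, 80.8 and 145 FPKM in ADSCs and 107, 157 and 106 FPKM in in vitro iSEPs.

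Contractile and cytoskeletal genes fell in 14 of 18 cases with none higher (0). Vim, the mesenchymal intermediate filament vimentin, was at 1082, 1131 and 1671 FPKM in ADSCs and 42.2, 147 and 115 FPKM in in vitro iSEPs (log2 difference -3.81, SE 0.56, adjusted p = 0.00018). Tagln, transgelin of smooth muscle and myofibroblasts, was at 1178, 1917 and 2235 FPKM in ADSCs and 22.3, 50.3 and 20.8 FPKM in in vitro iSEPs (log2 difference -5.86, SE 0.71, adjusted p = 4.10e-05). Myl9, a myosin light chain, was at 596, 861 and 819 FPKM in ADSCs and 49.8, 52.8 and 31.4 FPKM in in vitro iSEPs (log2 difference -4.07, adjusted p = 1.55e-06). The in vitro iSEPs held less Myl9 than keratinocytes, 139, 165 and 179 FPKM (log2 difference -1.85, adjusted p = 0.00596), and Vim kept up to 147 FPKM, in mouse 2. Tpm1, a tropomyosin, was not called, at 1008, 1298 and 1429.8 FPKM in ADSCs and 673, 1119.6 and 1026 FPKM in in vitro iSEPs. Genes of the fat lineage showed no common direction, with 7 of 16 higher and 5 lower, and 3 higher after median scaling. Without the ADSCs of mouse 1, 2 or 3, 4 were higher in each case. The 5 lower genes were Pparg, Cebpd, Scd1, G0s2 and Lpl, the last with adjusted p up to 0.134 when 1 library was left out (the ADSCs of mouse 1) and at 0.0540 in 12 libraries with a term for the mouse. Pparg, the regulator of fat cell formation, was at 6.69, 5.18 and 5.99 FPKM in ADSCs and 0.022, 0 and 0.113 FPKM in in vitro iSEPs (log2 difference -2.73, SE 0.12, adjusted p = 1.34e-08). Cebpd was at 38.4, 23.4 and 13.7 FPKM in ADSCs and 4.23, 3.92 and 4.05 FPKM in in vitro iSEPs (log2 difference -2.26, adjusted p = 4.22e-05). Fabp4, a fatty acid carrier, was not called, at 17.4, 20.5 and 24.9 FPKM in ADSCs and 14.1, 20.05 and 11.7 FPKM in in vitro iSEPs.

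Receptors and ligands of signalling pathways changed in both directions. Of 10 EGF receptor family genes, 6 were higher and 1 lower. Egfr itself was not called, at 39.2, 29.5 and 27.8 FPKM in ADSCs and 31.3, 27.7 and 26.0 FPKM in in vitro iSEPs. Its ligand Epgn, epigen, was at 0.111, 0.08 and 0 FPKM in ADSCs and 98.6, 51.3 and 40.8 FPKM in in vitro iSEPs (log2 difference 5.82, adjusted p = 1.02e-06). Tgfa, which encodes the ligand TGF alpha, was at 0.055, 0.045 and 0.087 FPKM in ADSCs and 12.4, 13.7 and 12.7 FPKM in in vitro iSEPs (log2 difference 3.71, adjusted p = 5.61e-06). The receptor level was thus alike on both sides while 2 ligands rose from near 0. Erbb3, a partner receptor, was at 0.039, 0.017 and 0.018 FPKM in ADSCs and 14.6, 9.22 and 14.1 FPKM in in vitro iSEPs (log2 difference 3.71, adjusted p = 5.75e-07). The feedback inhibitor Errfi1 fell from 71.0, 74.7 and 77.6 to 39.3, 31.0 and 28.2 FPKM (log2 difference -1.17, adjusted p = 0.000452).

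FGF receptors changed in opposite directions, and stromal FGF ligands fell. Fgfr1, the mesenchymal receptor, was at 64.9, 57.2 and 58.4 FPKM in ADSCs and 7.16, 21.2 and 15.3 FPKM in in vitro iSEPs (log2 difference -2.09, SE 0.47, adjusted p = 0.00304). Fgfr2, whose epithelial form binds FGF7, was at 4.07, 2.41 and 3.37 FPKM in ADSCs and 71.0, 26.7 and 32.5 FPKM in in vitro iSEPs (log2 difference 3.26, SE 0.42, adjusted p = 6.23e-05). Fgfr3 was at 0.219, 0.17 and 0.322 FPKM in ADSCs and 65.8, 24.8 and 50.6 FPKM in in vitro iSEPs (log2 difference 5.18, SE 0.54, adjusted p = 1.25e-05), far above keratinocytes at 3.21, 2.23 and 2.74 FPKM (log2 difference 3.59, adjusted p = 0.00279). Of Fgfr1 and Fgfr2, the more abundant per length was thus Fgfr1 in ADSCs and Fgfr2 in in vitro iSEPs, in mouse 2 by 26.7 against 21.2 FPKM. Fgfr3 lay near Fgfr2 in the in vitro iSEPs of mice 1 and 2 and above it in those of mouse 3. Fgf7, keratinocyte growth factor, a product of stroma, was at 119.7, 90.5 and 71.5 FPKM in ADSCs and 0.672, 2.82 and 2.58 FPKM in in vitro iSEPs (log2 difference -5.03, SE 0.38, adjusted p = 8.55e-07). Fgf2 was at 13.04, 14.3 and 15.2 FPKM in ADSCs and 0, 0.339 and 0.234 FPKM in in vitro iSEPs (log2 difference -3.68, adjusted p = 4.71e-09). Ligand and receptor of the HGF pair moved apart. Hgf, made by stromal cells, was at 39.6, 23.2 and 11.3 FPKM in ADSCs and 0.371, 0.662 and 0.43 FPKM in in vitro iSEPs (log2 difference -3.95, adjusted p = 2.21e-06). Its receptor Met, carried by epithelia, was at 3.54, 1.22 and 1.56 FPKM in ADSCs and 26.5, 34.0 and 22.5 FPKM in in vitro iSEPs (log2 difference 3.26, adjusted p = 7.09e-07). PDGF ligands changed in both directions. Pdgfb was at 0.032, 0.128 and 0.061 FPKM in ADSCs and 17.9, 19.9 and 12.9 FPKM in in vitro iSEPs (log2 difference 4.04, adjusted p = 1.38e-06). Pdgfc was at 12.6, 17.2 and 20.7 FPKM in ADSCs and 0.689, 1.43 and 1.31 FPKM in in vitro iSEPs (log2 difference -3.05, adjusted p = 6.96e-06). Pdgfd was at 19.96, 33.7 and 24.4 FPKM in ADSCs and 0.087, 0.412 and 0.045 FPKM in in vitro iSEPs (log2 difference -4.50, adjusted p = 4.08e-08). Of 13 receptors of these families 4 were higher (Fgfr2, Fgfr3, Met and Mst1r) and 7 lower, and of 23 ligands and binding proteins 8 were higher and 11 lower. Igfbp2, which binds insulin-like growth factors, was at 25.4, 29.5 and 54.5 FPKM in ADSCs and 2367, 1043 and 1637 FPKM in in vitro iSEPs (log2 difference 5.49, SE 0.44, adjusted p = 1.47e-06), against 151, 111 and 117 FPKM in keratinocytes (log2 difference 3.66, adjusted p = 0.000921). Igfbp6 was at 132, 89.0 and 81.9 FPKM in ADSCs and 0.456, 1.95 and 1.23 FPKM in in vitro iSEPs (log2 difference -5.55, adjusted p = 3.08e-08).

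WNT genes divided evenly, with 12 of 32 higher and 12 lower. Several ligands rose from near 0. Wnt4, a ligand that skin epithelium makes, was at 0.879, 0.455 and 2.16 FPKM in ADSCs and 325, 164 and 167 FPKM in in vitro iSEPs (log2 difference 6.67, adjusted p = 2.32e-07). Wnt10a was at 0.08, 0.017 and 0.055 FPKM in ADSCs and 90.0, 79.8 and 79.0 FPKM in in vitro iSEPs (log2 difference 6.32, SE 0.13, adjusted p = 8.62e-11) and varied little between cultures. Wnt7b was at 0.037, 0.01 and 0.074 FPKM in ADSCs and 41.8, 34.3 and 49.6 FPKM in in vitro iSEPs (log2 difference 5.35, adjusted p = 7.83e-08). Wnt6 was listed at 0 in all 3 ADSC libraries and was at 10.9, 4.36 and 4.12 FPKM in in vitro iSEPs (adjusted p = 9.82e-05). Receptors moved both ways. Fzd6 was at 2.75, 1.96 and 2.002 FPKM in ADSCs and 72.6, 60.8 and 64.3 FPKM in in vitro iSEPs (log2 difference 4.37, adjusted p = 1.78e-08). Fzd4 was at 8.39, 5.76 and 6.33 FPKM in ADSCs and 0.222, 0.163 and 0.077 FPKM in in vitro iSEPs (log2 difference -2.75, adjusted p = 3.82e-08). Dkk2, a secreted antagonist like Sfrp1, was at 13.01, 16.6 and 10.8 FPKM in ADSCs and 0.011, 0.117 and 0.076 FPKM in in vitro iSEPs (log2 difference -3.74, adjusted p = 5.69e-09). Wnt16, a noncanonical ligand, was at 11.9, 16.96 and 8.04 FPKM in ADSCs and 0.704, 0 and 0.146 FPKM in in vitro iSEPs (log2 difference -3.35, adjusted p = 8.33e-07). Both came to under 1 FPKM in every in vitro iSEP culture. Wnt5a was not called, at 12.3, 8.33 and 11.3 FPKM in ADSCs and 13.5, 13.1 and 14.1 FPKM in in vitro iSEPs. Axin2, a target of the canonical pathway, was at 0.244, 0.16 and 0.169 FPKM in ADSCs and 2.63, 0.921 and 2.10 FPKM in in vitro iSEPs (log2 difference 1.23, adjusted p = 0.00229).

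All 12 tested Notch pathway genes were higher, at a median log2 difference of 2.47. The receptor Notch2 lost its call after median or quantile scaling and without any 1 of 5 libraries, with adjusted p up to 0.140 without the ADSCs of mouse 2, and the other 11 kept theirs there. Notch1, the main receptor of epidermis, was at 1.46, 0.817 and 1.76 FPKM in ADSCs and 51.4, 44.7 and 54.4 FPKM in in vitro iSEPs (log2 difference 4.46, SE 0.19, adjusted p = 1.23e-08). The ligand Dll1 was at 0.119, 0.11 and 0.031 FPKM in ADSCs and 68.4, 41.7 and 37.3 FPKM in in vitro iSEPs (log2 difference 5.48, adjusted p = 2.68e-07). Jag2, another ligand, was at 0.062, 0.068 and 0.044 FPKM in ADSCs and 43.1, 31.9 and 23.4 FPKM in in vitro iSEPs (log2 difference 4.96, adjusted p = 6.82e-08). Receptor and ligands thus rose in the same cultures, mouse 1 being highest for both ligands. Nrarp, a feedback target, was at 0.037, 0.013 and 0.014 FPKM in ADSCs and 14.8, 6.42 and 11.1 FPKM in in vitro iSEPs (log2 difference 3.46, adjusted p = 1.92e-06). Hes1, another target, already expressed in ADSCs, was at 20.7, 18.1 and 18.4 FPKM in ADSCs and 45.8, 37.9 and 39.1 FPKM in in vitro iSEPs (log2 difference 1.06, adjusted p = 0.00018). The other 6 of the 18 listed Notch genes, Hey1, Hey2 and Heyl among them, did not pass the filter on low values.

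**Figure D4:**
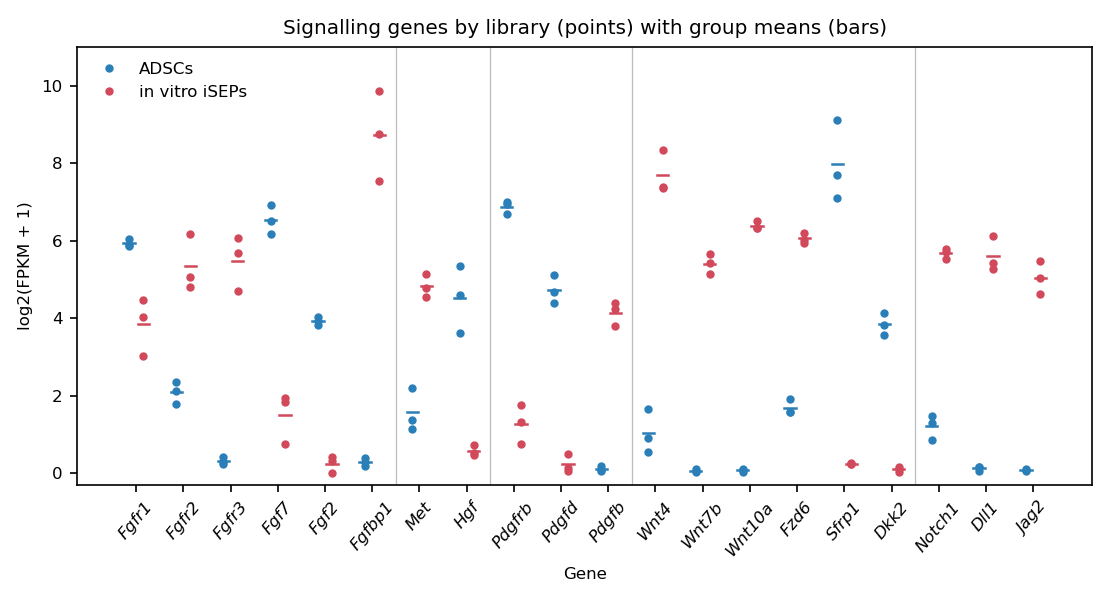
Level, as log2(FPKM + 1), of 20 ligands, receptors and antagonists of the FGF, HGF, PDGF, WNT and Notch pathways (horizontal axis) in ADSCs and in vitro iSEPs, with 1 point per library and short bars at the group means. Fgfr1 and Fgf7 lie higher in ADSCs, and Fgfr2, Fgfr3, Wnt4, Notch1 and Jag2 higher in in vitro iSEPs.

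Of 29 genes of the TGF beta and BMP pathways 20 were lower and 5 higher (Bmp3, Fst, Bmp7, Nog and Tgfbr2). The lower count was 16 without the library labelled in vitro iSEP of mouse 3. Bmp7 was not called without the in vitro iSEPs of mouse 2 (adjusted p = 0.0616), nor was Tgfbr2 after median or quantile scaling, with a term for the mouse (adjusted p = 0.0627 in 12 libraries) or without any 1 of 4 libraries, with adjusted p up to 0.149 without the ADSCs of mouse 3. Tgfb3 was at 33.2, 40.2 and 63.7 FPKM in ADSCs and 0.462, 2.33 and 1.21 FPKM in in vitro iSEPs (log2 difference -4.35, adjusted p = 5.22e-05). Tgfb1 was not called, at 12.8, 15.6 and 19.4 FPKM in ADSCs and 15.3, 20.01 and 12.5 FPKM in in vitro iSEPs. The 2 ligands thus differed in their call. Smad6, an inhibitor induced by BMP signals, was at 6.48, 6.46 and 7.20 FPKM in ADSCs and 0.026, 0.09 and 0.109 FPKM in in vitro iSEPs (log2 difference -2.84, adjusted p = 1.30e-08). Bambi, a decoy receptor, was at 2.01, 2.68 and 2.45 FPKM in ADSCs and 0.132, 0.1 and 0.112 FPKM in in vitro iSEPs (log2 difference -1.60, adjusted p = 9.67e-07). Fstl1, a secreted follistatin-like protein, was at 868, 719 and 649.9 FPKM in ADSCs and 28.6, 47.8 and 36.5 FPKM in in vitro iSEPs (log2 difference -4.29, adjusted p = 4.56e-07), still above keratinocytes at 3.67, 2.77 and 2.13 FPKM (log2 difference 3.31, adjusted p = 0.000243). Of 18 targets of TGF beta and YAP, 13 were lower, 10 without the library labelled in vitro iSEP of mouse 3, and 2 higher, Ajuba and Nuak2. Ajuba, a LIM protein at adherens junctions, was at 12.3, 13.2 and 15.5 FPKM in ADSCs and 104.9, 86.8 and 99.2 FPKM in in vitro iSEPs (log2 difference 2.75, adjusted p = 2.18e-08).

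Guidance molecules changed in both directions, with 14 of 38 higher and 12 lower. Efna3, an ephrin, was at 2.58, 2.18 and 2.47 FPKM in ADSCs and 88.2, 70.8 and 96.5 FPKM in in vitro iSEPs (log2 difference 4.65, adjusted p = 2.34e-08), above keratinocytes at 38.5, 35.4 and 30.7 FPKM (log2 difference 1.26, adjusted p = 0.00561). Slit3, a secreted repellent, was at 126, 99.0 and 119 FPKM in ADSCs and 1.45, 3.48 and 2.88 FPKM in in vitro iSEPs (log2 difference -5.04, adjusted p = 2.14e-08). Among Eph receptors the direction differed. Epha3 was at 7.73, 7.08 and 5.53 FPKM in ADSCs and 0.03, 0.068 and 0.031 FPKM in in vitro iSEPs (log2 difference -2.89, adjusted p = 1.43e-08). Epha1, an epithelial Eph receptor, was at 3.35, 3.91 and 7.76 FPKM in ADSCs and 42.4, 51.3 and 43.3 FPKM in in vitro iSEPs (log2 difference 3.02, adjusted p = 4.20e-06). Of 30 cytokine and chemokine genes, 8 were higher and 11 lower, and 5 and 4 were higher without the ADSCs of mouse 2, which held the most immune markers (72.4 FPKM), and without those of mouse 3. Il18, an interleukin of barrier epithelia, was at 3.76, 4.01 and 3.21 FPKM in ADSCs and 189.9, 62.3 and 180.2 FPKM in in vitro iSEPs (log2 difference 4.80, SE 0.44, adjusted p = 4.18e-06), against 16.98, 8.58 and 6.47 FPKM in keratinocytes (log2 difference 3.58, adjusted p = 0.000943). Il6, an inflammatory cytokine of stroma, was at 12.9, 8.55 and 12.8 FPKM in ADSCs and 0.103, 0.177 and 0.32 FPKM in in vitro iSEPs (log2 difference -3.36, adjusted p = 2.63e-08). Cxcl16, a chemokine also held on the surface, was at 3.57, 3.598 and 2.11 FPKM in ADSCs and 72.7, 65.5 and 55.6 FPKM in in vitro iSEPs (log2 difference 4.02, adjusted p = 1.21e-07). Ccl7, a monocyte attractant, was at 163, 148 and 244 FPKM in ADSCs and 8.24, 19.7 and 10.46 FPKM in in vitro iSEPs (log2 difference -3.81, adjusted p = 0.00287). Of 12 genes listed under coagulation and the plasminogen system, 3 were higher and 7 lower. Serpinf1, pigment epithelium-derived factor, fell by 6.03 on the log2 scale, from 1051, 1262 and 1276 to 7.51, 31.3 and 21.3 FPKM. The complement inhibitor Serping1 was at 44.6, 26.4 and 21.7 FPKM in ADSCs and 0.065, 0.369 and 0.468 FPKM in in vitro iSEPs (log2 difference -4.57, adjusted p = 3.26e-08).

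Genes of vitamin A metabolism were lower in 8 of 16 cases and higher in 2, Rxra and Rarg. Aldh1a2, which makes retinoic acid, was at 15.6, 29.2 and 31.3 FPKM in ADSCs and 0.017, 0.045 and 0 FPKM in in vitro iSEPs (log2 difference -4.63, SE 0.21, adjusted p = 1.87e-08). Dhrs3, a retinal reductase, was at 62.7, 100.1 and 45.0 FPKM in ADSCs and 7.18, 6.43 and 2.68 FPKM in in vitro iSEPs (log2 difference -3.46, adjusted p = 1.24e-05). In both the highest in vitro iSEP value lay below the lowest ADSC value. The receptor Rxra was at 15.5, 9.46 and 10.8 FPKM in ADSCs and 60.3, 38.6 and 51.5 FPKM in in vitro iSEPs (log2 difference 1.99, adjusted p = 5.79e-06). Antioxidant and detoxification genes were mixed, 11 of 24 higher and 9 lower. Gsto1, a glutathione transferase, was at 385, 327 and 377 FPKM in ADSCs and 3233, 3466 and 4246 FPKM in in vitro iSEPs (log2 difference 3.32, adjusted p = 5.69e-06). Mt1, a metallothionein that binds zinc and copper, was at 211, 248 and 147 FPKM in ADSCs and 703, 579 and 755 FPKM in in vitro iSEPs (log2 difference 1.77, adjusted p = 0.000173). Its neighbour Mt2 was at 178, 203 and 83.9 FPKM in ADSCs and 783, 489 and 590.2 FPKM in in vitro iSEPs (log2 difference 2.07, adjusted p = 0.00108). These 3 were abundant in ADSCs and higher still in every in vitro iSEP culture.

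Few genes of proliferation were called. Of 34 cell cycle genes 1 was higher and 2 were lower (Ccnd3 and E2f1), at a median log2 difference of -0.48. Mki67, a marker of cycling cells, was at 10.2, 8.05 and 14.1 FPKM in ADSCs and 7.39, 4.25 and 7.10 FPKM in in vitro iSEPs (adjusted p = 0.428). Top2a, a topoisomerase of dividing cells, was at 26.8, 28.5 and 37.9 FPKM in ADSCs and 22.2, 13.1 and 20.4 FPKM in in vitro iSEPs (adjusted p = 0.451). For both genes every in vitro iSEP value lay below the lowest ADSC value, yet neither difference passed limma's test over the 12 libraries. In the 6 libraries alone, with a term for the mouse, adjusted p was 0.0167 for Mki67 and 0.0222 for Top2a. That term takes the labels as given, and sex-linked genes put the pair of mouse 3 in doubt. Ccnd1, cyclin D, was the higher gene, at 20.3, 12.3 and 17.6 FPKM in ADSCs and 66.9, 109 and 123 FPKM in in vitro iSEPs (log2 difference 2.49, SE 0.32, adjusted p = 5.68e-05). Cdkn2a, which encodes the p16 and p19 tumour suppressors, was not called, at 79.2, 73.5 and 51.8 FPKM in ADSCs and 66.5, 146 and 97.3 FPKM in in vitro iSEPs, and exceeded keratinocytes at 23.5, 18.9 and 15.4 FPKM (log2 difference 2.31, adjusted p = 0.00769). Cdkn1a, the p21 gene, was not called either, at 164, 186 and 209 FPKM in ADSCs and 210.0, 264 and 389 FPKM in in vitro iSEPs, though it was with a term for the mouse (adjusted p = 0.0342 in 12 libraries). Of 22 CDK inhibitors and p53 pathway genes 5 were higher (Sfn, Sesn1, Trp53inp1, Btg2 and Phlda3) and 4 lower (Cdkn2c, Eda2r, Cdkn2d and Bax), of which Cdkn2d was not called without any 1 of 5 libraries, with adjusted p up to 0.0721 without the in vitro iSEPs of mouse 2. Trp53inp1, a stress-induced nuclear protein, was at 33.2, 34.2 and 18 FPKM in ADSCs and 135, 111 and 105.4 FPKM in in vitro iSEPs (log2 difference 2.05, adjusted p = 4.56e-05).

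Called shares of metabolic genes lay nearer to the background and depended on scaling. Of 23 cholesterol synthesis genes 9 were higher and 2 lower, Insig1 among them, at an adjusted p of 0.0943 without the ADSCs of mouse 2. Oxidative phosphorylation genes were higher in 10 of 26 cases, in 6 after median scaling and in 9 after quantile normalization. With either scaling 2 were lower. Uqcrc1 was at 56.4, 60.6 and 72.5 FPKM in ADSCs and 156, 166 and 172 FPKM in in vitro iSEPs (log2 difference 1.37, adjusted p = 8.06e-06). Of 24 glycolysis and hypoxia genes 4 were higher (Slc2a1, Ndrg1, Egln3 and Ddit4) and 5 lower (Vegfa, Bnip3, Eno1, Hk2 and Hk1). The lower count fell to between 2 and 4 when single libraries were left out. It reached 8 after median scaling and was 5 after quantile normalization. Single libraries decided the calls of Hk1, Hk2, Bnip3 and Ddit4, whose adjusted p reached 0.0901, 0.0850, 0.128 and 0.163 when the in vitro iSEPs of mouse 1, of mouse 2, of mouse 3 and the ADSCs of mouse 3 were left out, respectively. Ddit4 was not called with a term for the mouse either (adjusted p = 0.0694 in 12 libraries). Slc2a1, the glucose transporter of keratinocytes, was at 65.2, 70.9 and 58.5 FPKM in ADSCs and 312, 222 and 145 FPKM in in vitro iSEPs (log2 difference 1.72, adjusted p = 0.0014). Vegfa, a blood vessel growth factor, was at 72.4, 61.0 and 57.2 FPKM in ADSCs and 14.4, 12.5 and 7.23 FPKM in in vitro iSEPs (log2 difference -2.43, adjusted p = 0.000127). Ribosomal protein genes were higher in 10 of 22 cases, but in 1 after median scaling and in 8 after quantile normalization. They were higher in 1 and 2 without the ADSCs of mouse 1 and of mouse 3. Without the in vitro iSEPs of mouse 1 and of mouse 3, 2 and 6 were higher. Gapdh was listed at 0.446 to 0.484 FPKM in ADSCs and Rpl10 at 0.997 to 2.08 FPKM, so levels of genes with near-identical copies, ribosomal protein genes included, are uncertain.

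Early response genes were higher in 9 of 17 cases and lower in 3, Nr4a1, Egr2 and Maff (5 without the in vitro iSEPs of mouse 1). Fos, a subunit of AP-1, was at 4.21, 2.85 and 5.38 FPKM in ADSCs and 38.6, 38.8 and 40.7 FPKM in in vitro iSEPs (log2 difference 3.00, SE 0.23, adjusted p = 9.60e-07), above keratinocytes at 18.04, 15.4 and 12.96 FPKM (log2 difference 1.30, adjusted p = 0.00547). Junb, another AP-1 subunit, was at 52.7, 59.6 and 66.8 FPKM in ADSCs and 246, 111 and 148 FPKM in in vitro iSEPs (log2 difference 1.41, adjusted p = 0.000408). Nr4a1, an orphan nuclear receptor, was at 38.5, 42.1 and 48.7 FPKM in ADSCs and 4.88, 1.96 and 0.899 FPKM in in vitro iSEPs (log2 difference -3.77, adjusted p = 4.06e-06). Fos and Junb thus rose while Nr4a1, likewise an early gene, fell. Of 17 transport genes 10 were higher and 4, Slc1a5, Atp1b1, Slc7a5 and Slc6a6, were lower (2 without the ADSCs of mouse 3 or the in vitro iSEPs of mouse 3). Without the ADSCs of mouse 3 the adjusted p of Slc6a6 was 0.0568, and that of Atp1b1 reached 0.136 without the ADSCs of mouse 1 and 0.0584 in 12 libraries with a term for the mouse. Kcnk1, a potassium channel, was at 0.095, 0 and 0.031 FPKM in ADSCs and 40.05, 61.5 and 51.3 FPKM in in vitro iSEPs (log2 difference 5.62, adjusted p = 1.22e-08). Of 19 enzymes of DNA methylation and chromatin, 5 were higher (Tet3, Cbx7, Dnmt3a, Eed and Dnmt3b) and 1, Chd3, was lower. Chd3, a remodeller of the NuRD complex, was at 55.6, 52.7 and 54.8 FPKM in ADSCs and 13, 10.4 and 14.2 FPKM in in vitro iSEPs (log2 difference -2.04, adjusted p = 1.17e-05).

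Hox genes, which record position along the body, were lower in 13 of 26 cases and higher in 2, Hoxa7 among them. Hoxc10, a posterior gene, was at 39.8, 31.2 and 31.5 FPKM in ADSCs and 10.8, 7.32 and 11.5 FPKM in in vitro iSEPs (log2 difference -1.71, SE 0.16, adjusted p = 6.53e-06), and it was listed at 0 in all 3 keratinocyte libraries. Hoxa10 was at 13.2, 11.9 and 11.1 FPKM in ADSCs and 4.35, 5.59 and 1.68 FPKM in in vitro iSEPs (log2 difference -1.52, adjusted p = 0.000556), against 0.046, 0.016 and 0 FPKM in keratinocytes (log2 difference 2.16, adjusted p = 0.000943). Hoxc8 was not called, at 16.3, 15.96 and 12.6 FPKM in ADSCs and 14.4, 7.73 and 9.24 FPKM in in vitro iSEPs, and was above its keratinocyte level of 2.34, 0.614 and 1.01 FPKM (log2 difference 2.33, adjusted p = 0.00881). These 3 genes of the A and C clusters stood above keratinocytes in in vitro iSEPs. Hoxa3 and Hoxa5, also of the A cluster, lay below their keratinocyte levels. Hoxa5 was at 1.04, 0.892 and 0.624 FPKM in in vitro iSEPs and 4.46, 3.21 and 3.51 FPKM in keratinocytes. Of the 26 Hox genes, 8 were called higher and 8 lower than in keratinocytes, against 5.22% and 6.12% of all genes. Hoxb2 and Hoxb6 of the B cluster were among the lower ones. Hoxb2 was at 5.500, 7.96 and 6.78 FPKM in ADSCs and 0.623, 0.843 and 0.174 FPKM in in vitro iSEPs (log2 difference -2.34, adjusted p = 5.01e-06), below keratinocytes at 5.62, 6.02 and 5.36 FPKM (log2 difference -2.13, adjusted p = 0.000412). Hoxb6 was at 4.52, 4.47 and 5.84 FPKM in ADSCs and 0.414, 0.76 and 0.642 FPKM in in vitro iSEPs (log2 difference -1.89, adjusted p = 0.000165), below keratinocytes as well (log2 difference -1.79, adjusted p = 0.00316). Hoxb9 was at 27.6, 34.0 and 37.7 FPKM in ADSCs and 4.25, 4.47 and 4.93 FPKM in in vitro iSEPs (log2 difference -2.61, adjusted p = 0.000524). Among imprinted genes 8 of 15 were lower and 3 higher (Igf2, Dlk1 and Phlda2). Grb10, a growth inhibitor, was at 113, 83.7 and 81.2 FPKM in ADSCs and 6.08, 10.9 and 5.46 FPKM in in vitro iSEPs (log2 difference -3.50, adjusted p = 0.000832). Igf2, a growth factor, was at 0.242, 0.187 and 0.158 FPKM in ADSCs and 7.42, 3.87 and 2.85 FPKM in in vitro iSEPs (log2 difference 2.18, adjusted p = 0.000115), above keratinocytes at 0.429, 0.695 and 0.613 FPKM (log2 difference 1.78, adjusted p = 0.00512).

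Against keratinocytes in the same medium, 11.3% of the genes were called for in vitro iSEPs, 646 higher (5.22%) and 757 lower (6.12%). These counts depended on single libraries: they were 393 and 358 without the library labelled in vitro iSEP of mouse 3, and 370 and 389, 242 and 282, and 297 and 324 without keratinocyte libraries 1, 2 and 3. The genes given above with an adjusted p against keratinocytes kept that call when any 1 of these libraries was left out, and were chosen for it after their values were seen. The 2 comparisons of in vitro iSEPs share those libraries, so they are set side by side and not counted together.

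The 3 in vitro iSEP cultures differed among themselves, and differentiation, matrix and interferon genes did so in different orders. Genes of the cornified envelope were highest in mouse 1 for 18 of 24 and lowest in mouse 2 for 23 of 24, where over all genes mouse 1 was highest for 4066 and mouse 2 lowest for 3325 of 12364. Krt1, the first keratin of suprabasal cells, was at 0.013, 0.056 and 0.015 FPKM in ADSCs and 167, 1.17 and 21.7 FPKM in in vitro iSEPs (log2 difference 4.30, adjusted p = 0.0189). It was no longer called without the in vitro iSEPs of mouse 1 (log2 difference 2.77, adjusted p = 0.0663) or of mouse 3 (log2 difference 4.22, adjusted p = 0.0502), and stood at 5.91 without those of mouse 2. Krt10, its partner, was at 0.512, 0.556 and 0.447 FPKM in ADSCs and 92.3, 2.95 and 34.9 FPKM in in vitro iSEPs (log2 difference 3.98, adjusted p = 0.00425). Its log2 difference was 2.98 without mouse 1 and 5.27 without mouse 2. Lor, loricrin of the envelope, was at 0, 0.019 and 0.04 FPKM in ADSCs and 46.6, 0.922 and 9.06 FPKM in in vitro iSEPs, and its log2 difference of 3.25 became 2.11 without the culture of mouse 1 (adjusted p = 0.0417) and 4.42 without that of mouse 2. Wnt3, a WNT ligand of epithelia, was listed at 0 in all 3 ADSC libraries and was at 71.5, 5.17 and 20.8 FPKM in in vitro iSEPs. Mouse 1 was highest and mouse 2 lowest for each of these 4 genes.

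Matrix genes ran the other way. Fibrillar collagens were highest in mouse 2 for 13 of 16, matrix glycoproteins for 23 of 31 and collagen-modifying enzymes for 17 of 20. Over all genes tested, mouse 2 was highest for 35.2%. Hemidesmosome and basal adhesion genes, mostly risen in in vitro iSEPs, were also highest in mouse 2, for 15 of 18. They were lowest in mouse 3 for 11 and in mouse 1 for 7, against 28.2% and 45.0% of all genes. Matrix glycoproteins were lowest in mouse 1 for 61.3% of 31, nearer to the 45.0% of all genes. Timp1, an inhibitor of metalloproteinases, was at 4.17, 30.2 and 24.2 FPKM beside 491, 567 and 820.2 FPKM in ADSCs. Interferon response genes were highest in mouse 1 for 18 of 19 and lowest in mouse 3 for 17, against 32.9% and 28.2% of all genes. Isg15, an interferon-induced ubiquitin-like protein, was at 11.01, 25.1 and 12.5 FPKM in ADSCs and 88.9, 3.02 and 0.482 FPKM in in vitro iSEPs. Usp18, which removes that protein, was at 1.32, 4.45 and 1.59 FPKM in ADSCs and 23.96, 1.43 and 0.252 FPKM in in vitro iSEPs. Of the 19, 3 were called higher (Tap1, Psmb9 and Ifi35) and 2 lower (Ifit2 and Ifit3). Ifi35 was at an adjusted p of 0.0849 without the ADSCs of mouse 3, and the number called lower was 9 when the in vitro iSEPs of mouse 1 were left out. Tap1, the antigen peptide transporter, was at 5.68, 4.55 and 4.20 FPKM in ADSCs and 35.5, 22.9 and 18.02 FPKM in in vitro iSEPs (log2 difference 2.14, adjusted p = 1.36e-05). With 1 culture per mouse, differences between cultures have no replicate, and they were not tested. Mouse 1 also differed from mouse 2 in sex, by the sex-linked genes above, and the part of sex was not tested.

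**Figure D5:**
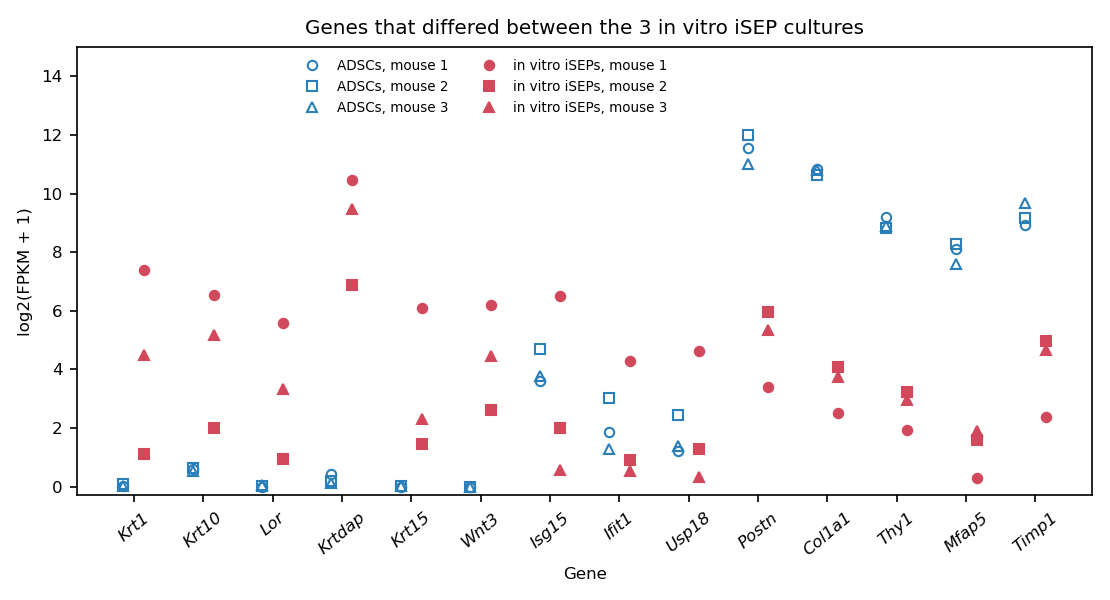
Level, as log2(FPKM + 1), of 14 genes (horizontal axis) in ADSCs (open) and in vitro iSEPs (filled), with a marker shape for each mouse. In in vitro iSEPs mouse 1 is highest for Krt1, Krt10, Lor, Krtdap, Krt15, Wnt3, Isg15, Ifit1 and Usp18, and lowest for Postn, Col1a1, Thy1, Mfap5 and Timp1.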

How the data were processed

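RNA-seq was done on 12 libraries, 3 each of keratinocytes, ADSCs and the 2 kinds of iSEPs. Reads were checked with FastQC 0.11.5, aligned with STAR 2.5.1b and quantified with HOMER against mm10, per the submitters' processing notes. The deposited values are FPKM that the authors made from reads in RefSeq exons on the transcript strand, with 1 entry per gene, per the file headers. The strandness of the library kit is not given in the sources used. Values were used as deposited, as log2(FPKM + 1), for genes that reached 1 FPKM in no fewer than 3 libraries. A further 3 columns of per-sample values match no label and stayed out. The depth of a library was inferred from the steps of the low values, of which 100% were whole multiples of 1 read within 0.15; totals per library are given above. Reads of genes with near-identical copies can be lost in such counting.

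limma 3.58.1 in R 4.3.3 fitted the means of the 4 groups over 12 libraries, with a variance trend on mean level, and the tests are two-sided with Benjamini-Hochberg adjustment over all tested genes at 0.05. The labels give each group the same 3 mouse numbers. Deviations from the group means correlated between same-numbered ADSC and in vitro iSEP libraries at 0.0147, -0.0201 and 0.102, so the fit has no mouse term, and one with it was an alternative. Each culture is 1 sample, and nothing in the labels tells culture from animal variation. The members and gene lists were chosen with earlier results of these data known.

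Genes were named by a rule: the 15 largest rises and 15 largest falls among called genes with no overlap between groups and a mean of 5 FPKM or more in the higher group, the most changed called members of each list (no more than 5), a fixed set of conversion and lineage genes, and the genes that varied most among in vitro iSEPs or were called against both ADSCs and keratinocytes. Other list members were named after their values were seen, and some named by the rule are not reported here. Promoters and motifs came from RefSeq by symbol, kept where the start lay within 50 bases of the deposited one. Alternatives were another pseudocount (0.1), no filter, a filter of 5 FPKM, median and quantile scaling, the 6 libraries alone, mouse blocks and leaving out each library. Leaving out both libraries of a mouse, and every alternative of the keratinocyte comparison, were added after the data were seen. The script for the fit was tested on simulated data.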

Additional observations from a re-analysis of the deposited data

How the results depend on the processing

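Against ADSCs, 3973 genes were higher and 2684 lower. The counts were 4039 and 2662 with a pseudocount of 0.1, 4094 and 3706 of 19261 genes with no filter, 3358 and 1916 of 9293 at 5 FPKM, 2986 and 3326 with median scaling, 3211 and 3224 with quantile normalization, and 3844 and 2721 in the 6 libraries alone. Pairing by mouse, as a replicate block, takes the labels as given, though sex-linked genes put the pair of mouse 3 in doubt. So paired, the counts were 3903 and 2674 in 12 libraries and 3541 and 2582 in 6. Without single libraries they ranged from 3356 to 3772 higher and from 2401 to 2584 lower, and without both libraries of a mouse from 2891 to 3522 and from 2239 to 2349. Of 276 called genes that the naming rule chose, 248 kept their call in each of these and none (0) reversed. Among called genes printed above, the block ended the calls of Tgfbr2, Lpl, Ddit4 and Atp1b1 in 12 libraries, and those of Ddit4 and Ltbp1 in 6 (adjusted p = 0.154 and 0.0549). It added those of Cdkn1a in both and of Krt18, Cldn3, Mki67 and Top2a in 6. Against keratinocytes, 646 higher and 757 lower genes ranged from 242 to 574 and from 282 to 653 without single libraries, and were 605 and 665 with the replicate block. Depth limits genes under 1 FPKM, and log2(FPKM + 1) understates their change. One culture per mouse and a medium that changed with the group limit every comparison with ADSCs.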
